A study of Mus musculus with 9 samples.

Results

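The genes described here encode the nuclear subunits of mitochondrial complex I, measured in single cells of adult mouse thyroid after antibody blockade of Notch signalling. Members were every gene of the count table whose symbol starts with Ndufa, Ndufb, Ndufc, Ndufs, Ndufv or Ndufab, without the assembly factors (Ndufaf, 8 genes) and the symbols marked as pseudogenes (-ps, 2 genes). The rule gave 41 of 52636 genes. They held 519166 of 63121420 unique molecular identifiers (UMIs, each counting 1 captured RNA molecule), or 0.822%. GENCODE lists 38 of them as protein-coding and 3 as processed pseudogenes that the symbol rule kept (Ndufa11b, Ndufb4c and Ndufs6b). The study had 9 samples in 3 groups, each sample a pool of thyroids from 6 male C57BL/6 mice, taken 7 days after a single intraperitoneal injection. Group RW received a control antibody against ragweed at 40 mg/kg, group aJ1aJ2 antibodies against the Notch ligands Jag1 and Jag2 at 20 mg/kg each, and group aN1aN2 antibodies against the receptors Notch1 at 5 mg/kg and Notch2 at 10 mg/kg. The sources give the mice's age as 10 to 12 weeks in one place and 10 to 14 weeks in another. The comparisons asked what blocking the ligands or the receptors does to cells of the adult thyroid. Every group received an antibody.

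Complex I is the first enzyme of the mitochondrial respiratory chain: it takes electrons from NADH, passes them along iron-sulfur clusters to ubiquinone and pumps protons across the inner membrane. Its core subunits carry out this chemistry and are encoded partly in the nucleus and partly in the mitochondrial genome, while many small accessory subunits, all nuclear, surround the core in a matrix arm and a membrane arm. Thyrocytes, the hormone-making cells of the gland, use respiration to sustain iodide uptake for hormone synthesis. Among the members, Ndufa4 is by current knowledge a subunit of complex IV, and Ndufa4l2 is its relative, induced by hypoxia; both keep the Nduf symbol.

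The table held 583 to 1805 cells and 3013324 to 11880793 UMIs per sample, with 16 cell labels given by the authors, whose meaning is not spelled out in the sources used here. Cells labelled Th1 (1169 cells) carried all 8 thyrocyte markers listed (Tg, Pax8 and others) in every sample, summed to 86020 to 116500 CPM (counts scaled to an equal library total). They held 304279 of the members' UMIs. Th1 libraries differed in depth: the median UMIs per Th1 cell were 12535 to 22558 in RW, 9968 to 15314 in aJ1aJ2 and 5737 to 7558 in aN1aN2. The sample titles carry internal numbers in separate ranges, and the 3 aN1aN2 samples alone make up 1 range, so receptor blockade and that range cannot be told apart. Of 10171 distinct barcodes, 15 occurred in more than 1 library. Counts were summed per sample and label, so n is the number of pools (3 per group in Th1), and CPM values are scaled within a label by TMM (trimmed mean of M values). Tests were edgeR's quasi-likelihood test over all genes of a label, and a gene was called at a Benjamini-Hochberg adjusted p under 0.05. Because these are sums over cells, less RNA per cell and a shift in which cells carry a label cannot be told apart.

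In Th1, the members together made up a smaller share of RNA after receptor blockade than in control. The summed share was 1.40%, 1.36% and 1.53% of UMIs in RW 1, RW 2 and RW 3. In aJ1aJ2 1, 3 and 4 it was 1.33%, 1.28% and 1.27%, and in aN1aN2 1, 2 and 3 it was 0.895%, 0.904% and 0.975%. All 3 aN1aN2 samples lay below all 6 others, and all 3 aJ1aJ2 samples lay below the lowest RW sample. The group means were 1.43 ± 0.0852% in RW, 1.29 ± 0.0325% in aJ1aJ2 and 0.925 ± 0.0442% in aN1aN2 (SD, n = 3 each), so the aN1aN2 share was 64.7% of that in RW. The share of UMIs from the mitochondrial genome was 8.07% to 8.83% in RW, 7.87% to 10.1% in aJ1aJ2 and 6.60% to 6.99% in aN1aN2. The share from Tg, the thyroglobulin gene, was 8.70% to 9.40%, 8.28% to 11.2% and 9.59% to 11.2%. With Tg and the mitochondrial genome left out of the total, the members' share was 1.67% to 1.83% in RW, 1.52% to 1.69% in aJ1aJ2 and 1.07% to 1.19% in aN1aN2, so aJ1aJ2 then overlapped RW while aN1aN2 stayed below both. In other labels the summed share took different courses. For RW against aN1aN2 it was 0.525% to 0.666% against 0.402% to 0.447% in F, 0.699% to 0.747% against 0.581% to 0.627% in EC3 and 0.782% to 0.812% against 0.662% to 0.773% in EC2, lower without overlap. In EC4 it was higher without overlap, at 0.507% to 0.529% against 0.590% to 0.700%. As a mean of single-cell shares, RW and aN1aN2 overlapped in EC4 (0.569% to 0.593% against 0.561% to 0.656%). They also overlapped in EC3 (0.646% to 0.752% against 0.585% to 0.654%) and EC2 (0.778% to 0.819% against 0.658% to 0.829%). In F they did not (0.502% to 0.676% against 0.388% to 0.476%).

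**Figure D1:**
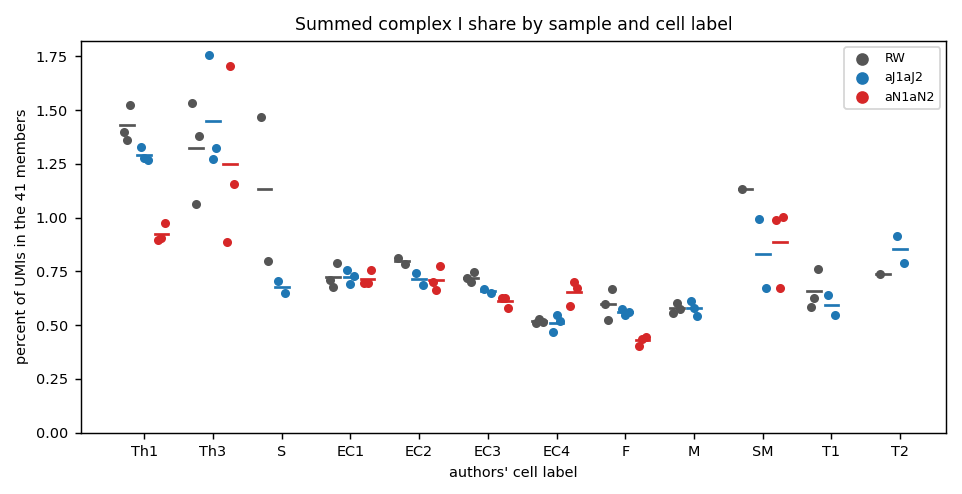
Percent of UMIs in the 41 members (y axis) for each sample (points) and group mean (short lines), by cell label (x axis); grey is RW, blue aJ1aJ2 and red aN1aN2. In Th1 the 3 aN1aN2 samples sit between 0.895% and 0.975%, below all RW and aJ1aJ2 samples, while in EC1 the groups overlap and in EC4 the aN1aN2 samples sit above the others.

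Gene by gene, 38 of the 41 members were abundant enough to test in Th1. Ndufa4l2 (40 UMIs over all Th1 cells), Ndufa11b (5 UMIs) and Ndufs6b (6 UMIs) were not. Under receptor blockade 30 of 38 members were called against RW, 29 lower and 1 higher. Over all 10627 genes tested in Th1, 34.4% were called, 17.3% lower and 17.1% higher. The members' median log2 change was −0.66, against 0.02 over all genes tested, and 37 of 38 members had a negative change, against 48.3% of all genes. For 32 members every aN1aN2 sample lay below every RW sample, and for 1 every aN1aN2 sample lay above; each of these patterns held for 23.7% of all genes. Against aJ1aJ2, the same aN1aN2 samples gave 25 called members (24 lower, 1 higher; 22.3% of all genes called) with a median of −0.48; both comparisons use these samples and are not independent. Of all genes, 11.5% were lower and 10.8% higher against aJ1aJ2. The count against aJ1aJ2 was 18 without aN1aN2 replicate 1 and 19 without aN1aN2 replicate 2. Against RW, leaving out 1 sample at a time cost the calls of 4 members at most, Ndufs1, Ndufv1, Ndufc2 and Ndufb4.

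**Figure D2:**
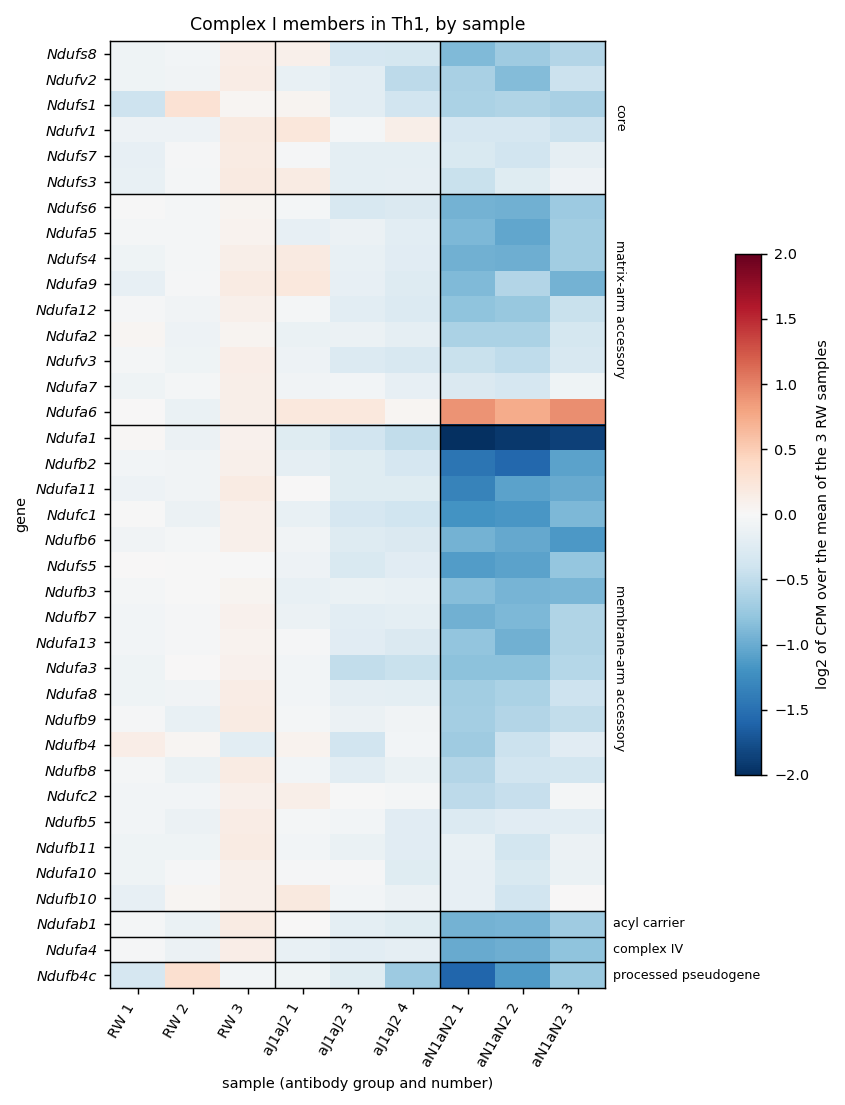
Members tested in Th1 (37 rows, grouped by role) in each of the 9 samples (columns); colour is the log2 of CPM over the mean of the 3 RW samples, with blue below and red above that mean. The aN1aN2 columns are blue in most rows, Ndufa1 deepest, and Ndufa6 is the row in which they are red.

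The nuclear core subunits form the electron path from NADH to ubiquinone. Among them, 4 fell under receptor blockade: Ndufs8 (log2 −0.74 ± 0.14 SE), Ndufv2 (−0.66 ± 0.14), Ndufs1 (−0.59 ± 0.18) and Ndufv1 (−0.37 ± 0.12). Ndufs8, an iron-sulfur subunit near the ubiquinone site, had 132, 136 and 153 CPM in RW 1, 2 and 3, 151, 111 and 110.3 in aJ1aJ2 1, 3 and 4, and 76.3, 85.4 and 93.1 in aN1aN2 1, 2 and 3 (adjusted p = 0.000878). Its aN1aN2 samples lay below all others, while the RW and aJ1aJ2 samples overlapped. Ndufv2, an iron-sulfur subunit at the NADH end, had 196, 198 and 232 CPM in RW, 189, 179.7 and 145 in aJ1aJ2 and 133, 114 and 155 in aN1aN2, the highest aN1aN2 sample lying above the lowest aJ1aJ2 one. Ndufs7 (−0.30 ± 0.11, adjusted p = 0.0564) and Ndufs3 (−0.27 ± 0.13, adjusted p = 0.134) did not pass the test. Ndufs1, the largest subunit, and Ndufv1, which binds the flavin that accepts electrons from NADH, were less firmly placed: the call of Ndufs1 was lost without RW replicate 2, RW replicate 3, aN1aN2 replicate 1 or aN1aN2 replicate 2, and that of Ndufv1 without RW replicate 3 or any 1 of the aN1aN2 samples, and in the DESeq2 test.

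Among the 9 accessory subunits of the matrix arm, 7 fell and 1 rose. Ndufs6 (−0.89 ± 0.11), Ndufa5 (−0.88 ± 0.11), Ndufs4 (−0.88 ± 0.13), Ndufa9 (−0.78 ± 0.16), Ndufa12 (−0.67 ± 0.12), Ndufa2 (−0.54 ± 0.10) and Ndufv3 (−0.43 ± 0.11) fell. Ndufs4, whose loss in mice gives a fatal encephalopathy used as a model of Leigh syndrome, had 229, 236 and 261 CPM in RW, 274, 219 and 207 in aJ1aJ2 and 125, 124 and 149.9 in aN1aN2 (adjusted p = 8.83e-05). Its 3 aN1aN2 samples lay below the other 6, which overlapped between RW and aJ1aJ2. Ndufa6, a protein of the LYR family that docks the acyl carrier protein on the matrix arm, rose. It had 357, 324 and 383 CPM in RW, 409, 409 and 364 in aJ1aJ2, and 661, 592 and 677 in aN1aN2 (log2 0.85 ± 0.10, 1.81-fold, adjusted p = 1.65e-05). Every aN1aN2 sample lay above every other sample, and the RW and aJ1aJ2 samples overlapped. Ndufa7 did not pass the test (−0.24 ± 0.10, adjusted p = 0.0838); its RW and aN1aN2 samples overlapped by a narrow margin, 574 to 663 against 482 to 574 CPM.

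The accessory subunits of the membrane arm, small proteins around the proton-pumping core, included the members with the lowest changes. Of 19, 15 fell, none rose and 4 did not pass the test. Ndufa1 is a small subunit at the junction of the arms, needed to assemble the complex and X-linked in mouse and human. It had 1018, 930.1 and 1069 CPM in RW, 852, 769 and 713 in aJ1aJ2 and 247, 263 and 276 in aN1aN2. The 3 groups did not overlap, with aJ1aJ2 between RW and aN1aN2; the aN1aN2 level was lower by 1.94 on the log2 scale (SE 0.11, 3.85-fold lower, adjusted p = 1.07e-08). Ndufb2 had 348, 346 and 389 CPM in RW, 321, 306 and 286 in aJ1aJ2 and 131, 121 and 172 in aN1aN2 (−1.38 ± 0.12, adjusted p = 9.73e-07), again with no overlap between groups. Ndufa11 had 328, 339 and 395 CPM in RW, 355, 299 and 299.9 in aJ1aJ2 and 139.9, 168 and 176 in aN1aN2 (−1.14 ± 0.12, adjusted p = 4.95e-06). Ndufc1 had 487, 452 and 525 CPM in RW, 438, 386 and 370.0 in aJ1aJ2 and 214, 217 and 262 in aN1aN2 (−1.09 ± 0.11, adjusted p = 3.83e-06). For both genes all aN1aN2 samples lay below all others. Ndufb6 (−1.02 ± 0.11), Ndufs5 (−0.99 ± 0.11), Ndufb3 (−0.90 ± 0.09), Ndufb7 (−0.82 ± 0.11) and Ndufa13 (−0.78 ± 0.11) followed in order of size. Ndufa13, also known as Grim19, had 1170.4, 1189 and 1279 CPM in RW, 1187, 1039 and 995 in aJ1aJ2 and 703, 625 and 798 in aN1aN2, with all aN1aN2 samples below the rest. The smaller falls were those of Ndufa3 (−0.74 ± 0.12), Ndufa8 (−0.60 ± 0.11), Ndufb9 (−0.59 ± 0.10), Ndufb4 (−0.46 ± 0.15), Ndufb8 (−0.44 ± 0.10) and Ndufc2 (−0.33 ± 0.12). The call of Ndufc2 was at the threshold (adjusted p = 0.0486), its RW and aN1aN2 samples overlapped, and it was lost without RW replicate 1, 2 or 3, aJ1aJ2 replicate 3 or 4, or aN1aN2 replicate 1 or 2. That of Ndufb4 was lost without RW replicate 1 or 2 or aN1aN2 replicate 1 or 2. The 4 not called were Ndufb5 (−0.25 ± 0.10, adjusted p = 0.0799), Ndufb11 (−0.21 ± 0.11, adjusted p = 0.147), Ndufa10 (−0.21 ± 0.11, adjusted p = 0.171) and Ndufb10 (−0.18 ± 0.12, adjusted p = 0.295).

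3 further members were grouped apart from the core and the arms' accessory subunits. Ndufab1, the mitochondrial acyl carrier protein, which sits in both arms and also serves fatty acid synthesis, fell (−0.88 ± 0.12, adjusted p = 4.33e-05), with 282, 266 and 325 CPM in RW, 292, 254 and 245 in aJ1aJ2 and 150.3, 153 and 178 in aN1aN2. Ndufa4 fell (−0.93 ± 0.10, adjusted p = 5.45e-06), with 1224, 1146 and 1362 CPM in RW, 1127, 1071 and 1099 in aJ1aJ2 and 617, 629 and 716 in aN1aN2. In both genes the aN1aN2 samples lay below all others. UMIs listed under the pseudogene Ndufb4c fell (−1.14 ± 0.22, adjusted p = 0.00113); a pseudogene can share reads with its parent gene, and it lies inside Mroh5 on the same strand, so its value is uncertain. The same holds for Ndufc2, which a processed pseudogene (Gm16053) overlaps on its strand, and for Ndufb2, Ndufb8, Ndufb9, Ndufa13 (Yjefn3) and Ndufa10 (the miRNA gene Mir6900), which overlap another annotated gene on their strand. Without the 3 pseudogenes, Ndufa4 and Ndufa4l2, 28 of 36 members were called, 27 lower and 1 higher. The symbol rule also left out Ndufb1-ps, which RefSeq lists as the subunit gene Ndufb1; chosen after its values were seen, it had 704 ± 41.8 CPM in RW and 424 ± 42.2 in aN1aN2 (−0.74 ± 0.10, adjusted p = 6.13e-05).

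**Figure D3:**
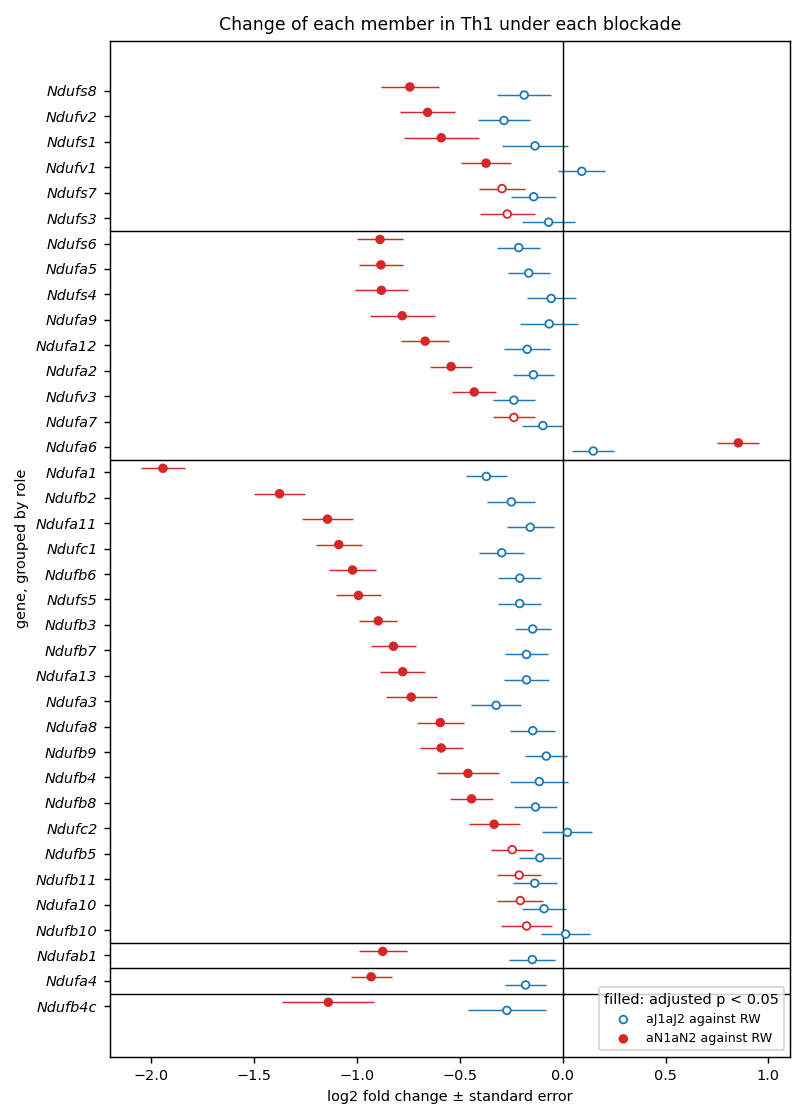
Log2 fold change (x axis) with its standard error for 37 members in Th1 (y axis, grouped by role); blue is aJ1aJ2 against RW, red aN1aN2 against RW, and filled points have an adjusted p under 0.05. No blue point is filled; of the red points 30 are, 29 left of 0 and Ndufa6 right of it.

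Ligand blockade gave smaller differences, none of which passed the test. Against RW, 0 of 38 members were called in Th1 by edgeR and 0 by DESeq2 (edgeR called 0.612% of all genes). With edgeR 6 members had an unadjusted p under 0.05. With DESeq2 size factors in edgeR, 6 of 38 members and 1303 of 10627 genes had an unadjusted p under 0.05. The lowest adjusted p was 0.115, for Ndufa1 (−0.37 ± 0.10). The median log2 difference was −0.15, against 0.01 over all genes, and 34 of 38 members were negative, against 49% of all genes. For 11 members every aJ1aJ2 sample lay below every RW sample, a pattern that held for 7.6% of all genes; among them were Ndufa1, Ndufb2, Ndufc1, Ndufa4 and Ndufs5. Ndufa3 stood at −0.32 ± 0.12. Without aJ1aJ2 replicate 1, Ndufa1 and Ndufa3 were called, as they were within the range of internal numbers that holds RW 1, RW 2, aJ1aJ2 3 and aJ1aJ2 4. Ndufa6 stood at 0.15 ± 0.10 (adjusted p = 0.598). Only 3 other members had a positive value: Ndufv1, Ndufc2 and Ndufb10.

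The other genes of respiration in Th1 gave values from lists chosen by name. Over all Th1 genes 17.3% were called lower and 17.1% higher under receptor blockade. Of 7 complex I subunits encoded in the mitochondrial genome, 3 fell: mt-Nd5 (−0.69 ± 0.21), mt-Nd2 (−0.58 ± 0.10) and mt-Nd1 (−0.48 ± 0.10). mt-Nd3 (0.42 ± 0.31, adjusted p = 0.326) and mt-Nd4 (−0.15 ± 0.09, adjusted p = 0.242) did not pass. Of 17 assembly factors tested of 19 listed, 8 fell, with Ndufaf3 (−1.09 ± 0.19), which acts early in assembly, and Lyrm2 (−1.09 ± 0.17) lowest, and none rose. Complex II had 3 of 4 genes lower, complex III 6 of 9, complex IV 10 of 14 lower and 2 higher, and complex V 12 of 16 lower and 1 higher. The genes that rose were Cox7a2l (1.00 ± 0.11), Cox6b2 (0.90 ± 0.16), known as a testis isoform, and Atp5g2 (1.43 ± 0.35), 1 of several genes for the same c subunit of ATP synthase. Another of these, Atp5g1, fell (−1.34 ± 0.12). The list medians were −0.48, −0.60, −0.49, −0.74, −0.61 and −0.53 in that order, from the mitochondrial complex I genes to complex V, against 0.02 over all genes. Of 14 transcriptional regulators of mitochondrial genes, 3 rose and none fell: Ppargc1a (0.75 ± 0.23), the coactivator PGC-1 alpha, Tfb2m (0.73 ± 0.18), a mitochondrial transcription factor, and Yy1 (0.38 ± 0.12). Nrf1 (0.34 ± 0.26, adjusted p = 0.344), Gabpa (0.35 ± 0.17, adjusted p = 0.124) and Esrra (0.21 ± 0.16, adjusted p = 0.343) did not pass. Among the 6 regulators with a negative value, Tfam (−0.48 ± 0.18, adjusted p = 0.0500), Pprc1 (−1.09 ± 0.41, adjusted p = 0.0521), Ppargc1b (−0.995 ± 0.441, adjusted p = 0.095) and Polrmt (−0.52 ± 0.31, adjusted p = 0.212) did not pass either, and the list's median was 0.20. Under ligand blockade no gene of any of these lists was called.

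Most members are short genes, and over all genes length moved with the change. Of 38 tested members, 30 lay in the shortest quartile of tested genes by summed exon length (69 to 2766 nt, GENCODE). In that quartile the median change under receptor blockade was −0.15 over all genes and −0.70 over the members, and 45.0% of all genes were called, 28.4% lower. In the longest quartile the median over all genes was 0.11 and 28.6% were called. Among members the order was not the same: the 4 members in the third quartile (4487 to 6968 nt) had a median of −0.85, where all genes stood at 0.09, and the 3 in the second −0.43. Across the 38 members, the log2 change and log2 exon length had a Pearson r of 0.265; over 10616 genes r was 0.0978. These points share libraries, and the part of length in the result was not tested. After every Th1 sum was thinned to 872716 UMIs, which leaves the depth per cell unequal, 29 members were called, and 28 were called in Th1 cells of 5000 to 20000 UMIs alone, a window chosen after the depths were seen. Markers of other cells also moved in Th1: summed Schwann cell markers were 225 to 248 CPM in RW, 163 to 198 in aJ1aJ2 and 87.1 to 99.1 in aN1aN2. C cell markers overlapped between groups, at 413 to 1084 CPM in RW, 26.1 to 2613 in aJ1aJ2 and 1000.0 to 1885 in aN1aN2. Parathyroid markers in Th1 were 6.67 to 38.4 CPM in the RW samples against 96.4 to 237 for aN1aN2. Their part in the result was not tested.

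Promoter sequence was available from RefSeq (GRCm38.p6) for 33 of the 41 members, as the 250 bases before the start of transcription. Each was searched on both strands for 3 motifs: that of NRF1 (GCGC, any base, T, then GCGC), that of GABPA (CCGGAAG) and that of YY1 (AANATGGC), factors known for sites in promoters of respiratory genes. NRF1 letters were found in 6 of 33 (18.2%), against 10.1% of the 8264 genes tested in Th1 with a promoter. They were in Ndufa11, Ndufa5, Ndufa8, Ndufb4, Ndufs5 and Ndufs6. GABPA letters were in 3 (9.09%, against 17.0%), those of Ndufb6, Ndufb7 and Ndufs3, and YY1 letters in 5 (15.2%, against 5.43%), those of Ndufa7, Ndufb10, Ndufb11, Ndufb5 and Ndufs8. Printed are the promoter of Ndufa1, with the lowest change, and of Ndufa6, which rose, neither holding any of these letters, and those of Ndufa11 and Ndufs5, which fell and hold the NRF1 letters, shown in capitals. Ndufa1 lies at chrX:37191239-37191488 (minus strand), Ndufa11 at chr17:56717512-56717761 (plus), Ndufs5 at chr4:123718203-123718436 (minus) and Ndufa6 at chr15:82354323-82354541 (minus). Bases inside a GENCODE exon were left out (16 in Ndufs5, 31 in Ndufa6), and each runs 5′ to 3′ on the gene's strand.
Ndufa1: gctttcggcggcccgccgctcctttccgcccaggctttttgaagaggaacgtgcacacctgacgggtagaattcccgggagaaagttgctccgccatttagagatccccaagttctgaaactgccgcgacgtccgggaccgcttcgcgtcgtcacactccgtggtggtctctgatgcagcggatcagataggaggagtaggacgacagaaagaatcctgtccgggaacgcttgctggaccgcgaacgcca
Ndufa6: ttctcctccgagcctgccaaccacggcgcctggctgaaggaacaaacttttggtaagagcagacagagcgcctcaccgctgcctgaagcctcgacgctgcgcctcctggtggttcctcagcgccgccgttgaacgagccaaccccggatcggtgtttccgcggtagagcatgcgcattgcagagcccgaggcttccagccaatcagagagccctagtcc
Ndufa11: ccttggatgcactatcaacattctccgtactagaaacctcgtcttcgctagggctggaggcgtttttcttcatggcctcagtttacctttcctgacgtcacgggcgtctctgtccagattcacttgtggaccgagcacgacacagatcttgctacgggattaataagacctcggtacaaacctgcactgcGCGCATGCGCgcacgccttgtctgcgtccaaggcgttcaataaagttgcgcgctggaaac
Ndufs5: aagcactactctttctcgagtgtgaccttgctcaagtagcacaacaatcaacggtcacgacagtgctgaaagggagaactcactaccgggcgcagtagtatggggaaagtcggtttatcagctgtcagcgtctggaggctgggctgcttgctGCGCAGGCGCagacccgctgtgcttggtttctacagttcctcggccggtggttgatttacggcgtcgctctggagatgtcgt
A match is a description of letters in this window and says nothing of binding. Ndufa1 itself spans chrX:37187588-37191163 and Ndufa6 chr15:82350140-82354322 in GENCODE, both on the minus strand. The Ndufa1 window thus stops short of the GENCODE start of Ndufa1, and the bases between them were not searched.

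In control thyroids the members were not evenly spread over cell labels. By mean CPM over RW samples, scaled to plain library totals, 16 of the 41 members were highest in Th1, 12 in S, 8 in Th3, 3 in EC3 and 2 in EC2. The mean for S comes from 2 RW samples that stood apart (a summed share of 1.47% in RW 1 and 0.800% in RW 3), and without RW 1 in S, a setting chosen after the data were seen, 23 members were highest in Th1, 10 in Th3 and 3 in S. The Th1 level over the median of the other labels, leaving out Eryth1 and Eryth2, was 4.32 for Ndufb8, 3.98 for Ndufa1, 3.07 for Ndufa13 and 2.71 for Ndufb2. It was lowest for Ndufa8 (1.01) and for Ndufa4l2 (0.909). Ndufa1 stood at 1049 ± 282 CPM in Th3 and 995 ± 67.1 in Th1 (SD, n = 3), which overlapped, and at 162 to 311 CPM in the other labels apart from the erythroid ones, with 17.3 in Eryth1 and 11.2 in Eryth2. Ndufa8 was at 178 ± 14.2 CPM in Th1 and 295 ± 6.25 in EC1. The median UMIs per cell were 12553 in Th1, 987 in Th3, 2215 in S and 3994 in EC1.

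Outside Th1, 8 labels allowed the test of aN1aN2 against RW, with at least 2 samples of 20 cells per group, giving 222 pairs of member and label. Of these, 33 were called, 24 lower and 9 higher, in 6 labels. Only 1 member was tested in Eryth1 and 2 in Eryth2, and none was called (7.69% and 8.6% of all genes called). EC1 cells carried endothelial markers (12580 to 17610 CPM summed). There 7 members fell and 3 rose of 38 (17.8% of all genes called, 8.93% lower and 8.83% higher). Ndufc2, a membrane-arm subunit, had 351, 379 and 498 CPM in RW, 424, 486 and 475 in aJ1aJ2 and 901, 799 and 1044 in aN1aN2 (1.15 ± 0.14, adjusted p = 2.92e-06). Ndufa7, of the matrix arm, had 326, 341 and 364 CPM in RW and 510.1, 520.2 and 519 in aN1aN2 (0.59 ± 0.11, adjusted p = 0.000727). Ndufa6 had 233, 224 and 289 CPM in RW and 350.0, 349 and 430 in aN1aN2 (0.58 ± 0.13, adjusted p = 0.00351). In all 3 genes every aN1aN2 sample lay above every RW sample, and for Ndufc2 the EC1 mean of 915 CPM in aN1aN2 was above its Th1 mean of 407 CPM in the same samples. Ndufc1 (−0.74 ± 0.15), Ndufa1 (−0.70 ± 0.14) and Ndufa4 (−0.50 ± 0.12) fell, Ndufa1 from 249, 263 and 258 CPM in RW to 144, 169 and 162 in aN1aN2. These 6 calls held in all 13 alternatives. Ndufs5 (−0.47 ± 0.14), Ndufb7 (−0.45 ± 0.14), Ndufa5 (−0.44 ± 0.15) and Ndufb9 (−0.41 ± 0.13) fell too. Ndufs5 was not called without RW replicate 3 or aN1aN2 replicate 2 or 3. Ndufb7 was not called without RW replicate 1 or 3 or aN1aN2 replicate 1 or 2, and Ndufb9 without RW replicate 1 or 3 or aN1aN2 replicate 2 or 3. Ndufa5 was not called without RW replicate 2 or 3, aJ1aJ2 replicate 3 or 4 or any 1 aN1aN2 sample, and DESeq2 called neither Ndufa5 nor Ndufb9. Thyrocyte markers also moved in EC1: their sum lay between 713 and 988 CPM in the RW samples, and aN1aN2 had 1330.0 to 1944. For C cell markers the ranges were 47.5 to 71.8 and 171 to 219, and for parathyroid markers 38.9 to 71.9 and 180 to 286. Lower in aN1aN2 were the endothelial sum itself (16420 to 16760 against 12580 to 13050), macrophage markers (64.3 to 169 against 0 to 6.33) and the median UMIs per EC1 cell (4679 to 4968 against 2518 to 3534). Their part in these results was not tested.

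**Figure D4:**
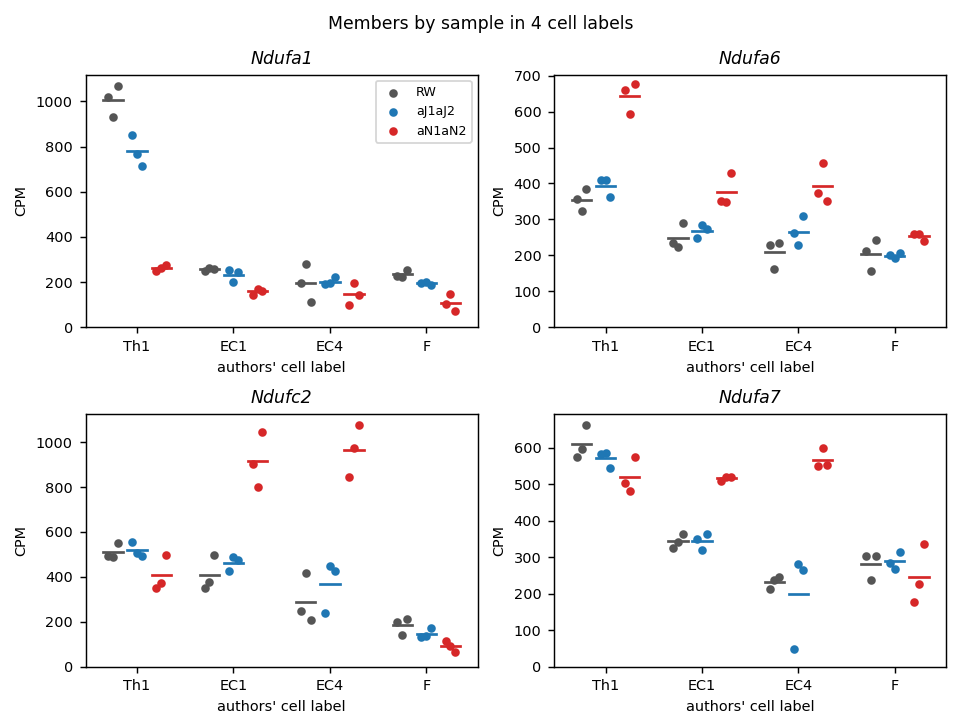
CPM (y axis, from 0) of Ndufa1, Ndufa6, Ndufc2 and Ndufa7 in 4 cell labels (x axis); points are samples, short lines group means, grey RW, blue aJ1aJ2 and red aN1aN2. Ndufa1 is lower in aN1aN2 in Th1, EC1 and F, Ndufa6 is higher in Th1, EC1 and EC4, and Ndufc2 and Ndufa7 are higher in EC1 and EC4 but not in Th1.

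EC4 cells carried endothelial markers too (13950 to 18070 CPM summed) and were shallow (a median of 1046 UMIs). There 4 of 33 members rose and none fell (21.1% of all genes called, 11.2% higher). Ndufc2 had 247, 415 and 207 CPM in RW, 237, 449 and 424 in aJ1aJ2 and 845, 972 and 1076 in aN1aN2 (1.78 ± 0.24, adjusted p = 2.68e-06). Ndufa7 had 212, 237 and 245 CPM in RW, 47.4, 282 and 266 in aJ1aJ2 and 551, 600.0 and 552 in aN1aN2 (1.30 ± 0.26, adjusted p = 0.000521). For both genes each aN1aN2 sample lay above every other sample. Ndufa6 rose as well (0.87 ± 0.23, adjusted p = 0.00755). Ndufb4 rose in the fit of all samples only with a wide error (0.99 ± 0.34), and its call was lost in DESeq2 and without RW replicate 1 or 3 or any 1 aN1aN2 sample. Other measures moved with group in EC4 without overlap. For RW against aN1aN2, C cell markers were 99.1 to 156 against 298 to 530 CPM and erythroid markers 218 to 1065 against 1667 to 2386. Endothelial markers were 16330 to 18070 CPM against 13950 to 15000, Schwann cell markers 35.9 to 125 against 4.96 to 8.28, macrophage markers 7.80 to 78.9 against 0, and the mitochondrial share 9.04% to 11.7% against 5.51% to 6.99%. Their part in these results was not tested. In EC2 (endothelial markers 4536 to 6177 CPM), with 2 RW samples, 5 of 34 members were called. Over all EC2 genes 15.5% were called, 6.62% lower and 8.85% higher. In EC2 Ndufa7 (0.94 ± 0.21) and Ndufc2 (0.87 ± 0.21) rose, and Ndufs5 (−1.42 ± 0.32), Ndufc1 (−1.24 ± 0.34) and Ndufa4 (−0.93 ± 0.22) fell. Without RW replicate 1 the EC2 calls of Ndufa7, Ndufc2, Ndufc1 and Ndufa4 were lost. That fit has 1 RW sample, so its spread comes from the other groups. Without aN1aN2 replicate 1 those of Ndufs5 and Ndufc1 were lost, and without aN1aN2 replicate 2 that of Ndufc1, which DESeq2 did not call either. Thyrocyte markers in EC2 were 645 to 668 CPM in the RW samples against 859 to 1596 for aN1aN2, and erythroid markers 411 to 494 against 1341 to 1772. In the same order, C cell markers were 66.4 to 94.2 against 109 to 195, parathyroid markers 25.7 to 109 against 136 to 352 and skeletal muscle markers 411 to 584 against 655 to 993. The median UMIs per EC2 cell were 3657 to 4037 against 1271 to 1819. The part of these in the EC2 results was not tested.

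F cells, which carried fibroblast markers (26700 to 39470 CPM summed), had 11 of 39 members lower and none higher (19.8% of all genes called, 10.6% lower). Ndufa1 had 227, 224 and 252 CPM in RW, 194, 201 and 189 in aJ1aJ2 and 101, 146 and 73.4 in aN1aN2 (−1.08 ± 0.23, adjusted p = 0.0028). Ndufb7, a membrane-arm subunit, had 161, 181 and 157 CPM in RW and 75.7, 79.6 and 94.3 in aN1aN2 (−1.03 ± 0.25, adjusted p = 0.00569). In both, the groups did not overlap. Ndufc2, higher in EC1, EC2 and EC4, was lower here: the RW samples lay at 141 to 214 CPM, and aN1aN2 1, 2 and 3 at 114, 92.9 and 62.9 (−0.96 ± 0.27, adjusted p = 0.0178). Ndufa13 (−0.95 ± 0.21), Ndufv3 (−0.90 ± 0.24), Ndufc1 (−0.84 ± 0.29), Ndufs5 (−0.82 ± 0.27), Ndufa11 (−0.81 ± 0.24), Ndufa4 (−0.77 ± 0.20) and Ndufa3 (−0.75 ± 0.26) were the others besides Ndufa4l2. aN1aN2 replicate 2 stood apart in F, with 43670 CPM of erythroid markers. The other aN1aN2 samples had 851 and 1233 CPM, above the 109 to 296 of RW, and aJ1aJ2 had 161 to 982. Depth differed too, with a median of 5561 to 10026 UMIs per F cell in RW and 2295 to 3864 in aN1aN2. The part of either in the F results was not tested. Without it 6 members were called, and Ndufc2, Ndufv3, Ndufa4, Ndufa3 and Ndufc1 were not. Ndufc2 was also lost without RW replicate 1 or aN1aN2 replicate 3, and Ndufa11 without aN1aN2 replicate 1 or 3. Ndufs5 was lost without RW replicate 1 or 3 or aN1aN2 replicate 1 or 3. Ndufa3 was lost without RW replicate 1 or 3, aJ1aJ2 replicate 3 or any 1 aN1aN2 sample, and Ndufc1 without RW replicate 2 or 3, aJ1aJ2 replicate 4 or any 1 aN1aN2 sample. DESeq2 called none of Ndufa11, Ndufs5, Ndufa3 and Ndufc1. The count in F was also 6 without aN1aN2 replicate 3 and 7 without aN1aN2 replicate 1. In Th3, 1 of 36 members was called (5.03% of all genes, 2.54% lower): Ndufa1, with 1511, 1132 and 999 CPM in RW and 305, 641 and 249.8 in aN1aN2 (−1.58 ± 0.37, adjusted p = 0.0366). All aN1aN2 samples were below all RW samples, but the call was lost without RW replicate 1, 2 or 3, aJ1aJ2 replicate 3 or 4, or aN1aN2 replicate 1 or 3. Th3 cells carried thyrocyte markers (26230 to 123400 CPM summed) together with C cell markers, at 36930 to 67710 CPM in RW, 2614 to 20000 in aJ1aJ2 and 699.8 to 10480 in aN1aN2. Skeletal muscle markers reached 93910 CPM in 1 aN1aN2 sample. For RW against aN1aN2 in Th3, Schwann cell markers were 168 to 243.5 CPM against 11.5 to 88.2, and erythroid markers 285 to 1194 against 1290 to 1787. The part of these in the Ndufa1 value was not tested.

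**Figure D5:**
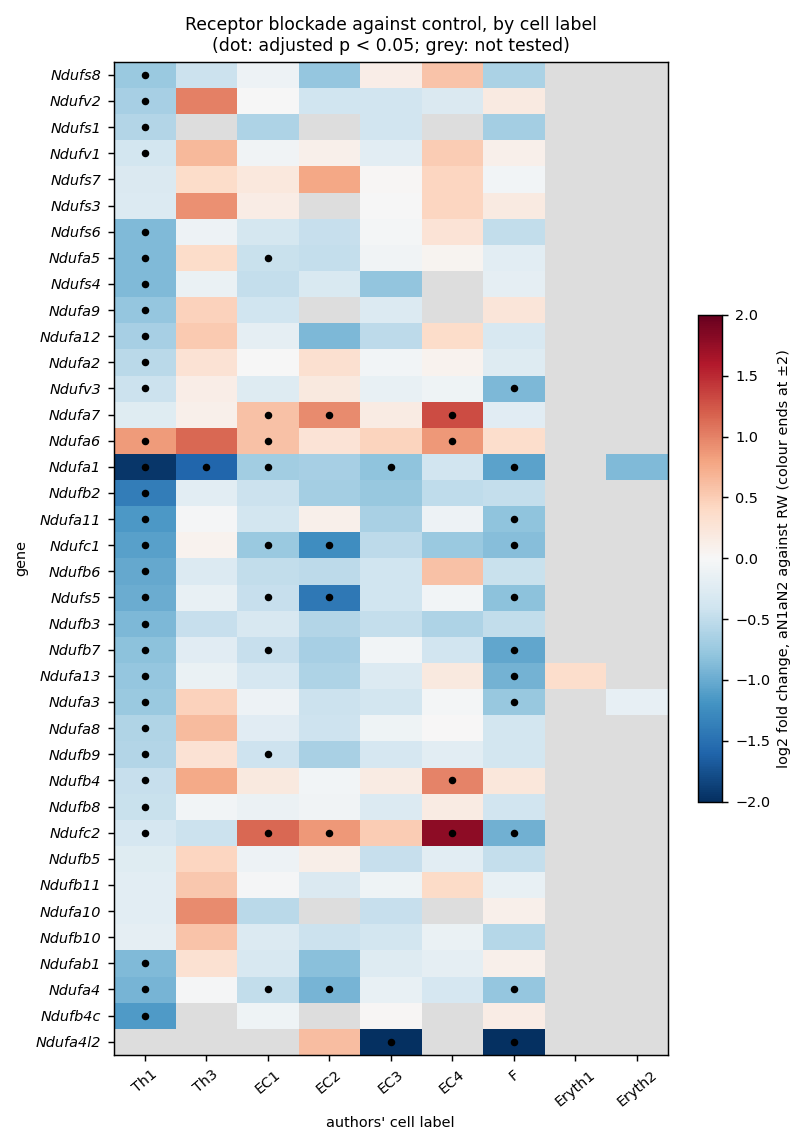
Log2 fold change of aN1aN2 against RW (colour, ending at ±2) for 38 members (rows) in each cell label tested (columns); black dots mark an adjusted p under 0.05 and grey cells were not tested. Dots are dense in the Th1 column, and the red cells with dots in EC1, EC2 and EC4 are those of Ndufc2, Ndufa7, Ndufa6 and Ndufb4.

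Ndufa4l2, which encodes a mitochondrial protein induced by low oxygen and known from pericytes, was found mainly outside Th1. In EC3, whose cells carried endothelial (3360 to 6189 CPM summed) and mural markers, it had 222, 78.8 and 224 CPM in RW and 0, 12.8 and 6.98 in aN1aN2, from 234 and 3 UMIs, and it fell (−4.52 ± 0.67, adjusted p = 0.00105; 2 of 39 members called, both lower; 5.91% of all genes called, 2.41% lower). Over the group the RW level was 24.3 times that of aN1aN2, with a 95% exact counting interval of 8.21 to 119. The 2 aJ1aJ2 samples held 18 UMIs, and RW stood at 6.52 times that level (4.04 to 11.2), which passed the test only in DESeq2, without a filter on low counts, or without RW replicate 2. In F it had 92.3, 77.9 and 185 CPM in RW and 25.2, 13.3 and 31.4 in aN1aN2 (−2.31 ± 0.50, adjusted p = 0.00291). In both labels no aN1aN2 sample reached the lowest RW sample. Beside it in EC3, the 4 mural cell markers (Acta2, Rgs5, Tagln and Myh11) summed to 2617 to 4203 CPM in RW, 999 to 1367 in aJ1aJ2 and 733 to 921 in aN1aN2, with Myh11 at 0 in aN1aN2 replicate 1. In F the sum was 8.72 to 144 CPM for RW, while the aN1aN2 samples had 0 to 9.34, with Myh11 at 0 in all 6 of these samples. In EC3 the endothelial sum was 3360 to 4531 CPM for RW against 4949 to 6189 for aN1aN2, and erythroid markers 120 to 306 against 743 to 1130. In the same order, fibroblast markers in EC3 were 61.2 to 905 CPM against 18.2 to 38.7, parathyroid markers 20.9 to 42.9 against 59.5 to 261, Schwann cell markers 5.85 to 39.9 against 0 and macrophage markers 2.55 to 11.7 against 0. The mitochondrial share was 4.79% to 5.56% against 4.09% to 4.18%, and the median UMIs per cell 5176 to 7011 against 3093 to 5072. The part of these measures in the Ndufa4l2 result was not tested. The other call in EC3, Ndufa1 (−0.80 ± 0.21, adjusted p = 0.0379), was lost in DESeq2 and without RW replicate 1 or 3, aJ1aJ2 replicate 3 or 4, or any 1 aN1aN2 sample.

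Ligand blockade gave 0 calls among 325 pairs of member and label in 11 other labels with edgeR, and 1 with DESeq2 (Ndufa4l2 in EC3). Of the 325 pairs, 12 had an unadjusted p under 0.05 with edgeR, for which no share of all genes is given. Of all genes, 1.43% were called in EC1, 1.91% in EC2, 0.0618% in EC3, 0.903% in EC4, 0.358% in Eryth2 and 0.579% in F, and 0 in Eryth1, M, S, T1 and Th3. The label S, which carried Schwann cell markers, stood apart. All 34 tested members had a negative value in aJ1aJ2, with a median of −0.77. Over all S genes 50.8% were negative, with a median of −0.02. In S 0 members were called and 5 had an unadjusted p under 0.05, again with no share of all genes given. The summed share was 1.47% of UMIs in RW 1 and 0.800% in RW 3, against 0.705% and 0.648% in aJ1aJ2, and without RW replicate 3, which leaves 1 RW sample assumed to vary like the rest, 25 members were called, as were 39.1% of all genes. RW 1 had 8361 CPM of Schwann cell markers and RW 3 had 23080, against 19440 and 17880 in aJ1aJ2. The count in S thus turned on 1 library. Receptor against ligand blockade gave 19 calls among 255 pairs, 12 lower and 7 higher, in EC1 (10; 13.5% of all genes), EC2 (2; 10.5%), EC4 (2; 17.2%) and F (5; 16%). There were no calls in EC3 (1.27% of all genes), Eryth1 (5.59%), Eryth2 (9.32%), SM (3.66%) and Th3 (1.44%). Ndufc2 was higher in aN1aN2 than in aJ1aJ2 in EC1 (0.98 ± 0.14), EC2 (0.69 ± 0.19) and EC4 (1.27 ± 0.22). Ndufa7 was higher in EC1 (0.58 ± 0.11) and EC4 (1.26 ± 0.25). The EC2 call of Ndufc2 was lost without aJ1aJ2 replicate 3 or 4 or any 1 aN1aN2 sample. EC2 had 2 aJ1aJ2 samples, so a fit without 1 of them takes its spread from the other groups. Ndufa6 was higher in EC1 (0.47 ± 0.14), a call lost without aJ1aJ2 replicate 1 or 4 or aN1aN2 replicate 3. Lower in EC1 were Ndufc1 (−0.59 ± 0.15), Ndufb7 (−0.55 ± 0.14), Ndufb9 (−0.55 ± 0.13), Ndufa1 (−0.55 ± 0.14), Ndufs6 (−0.49 ± 0.15) and Ndufa4 (−0.45 ± 0.12). Of these calls, Ndufc1 and Ndufb9 were lost without aN1aN2 replicate 2, Ndufa1 without aN1aN2 replicate 1 and Ndufb7 without either. Ndufa4 was lost without aJ1aJ2 replicate 4 or aN1aN2 replicate 2, and Ndufs6 without aJ1aJ2 replicate 4 or aN1aN2 replicate 1 or 3. Ndufa4 was lower in EC2 (−0.86 ± 0.21), which was lost without aJ1aJ2 replicate 4 or aN1aN2 replicate 2 or 3. Lower in F were Ndufa11 (−0.88 ± 0.23), Ndufa13 (−0.84 ± 0.21), Ndufa1 (−0.82 ± 0.23), Ndufb7 (−0.81 ± 0.24) and Ndufs6 (−0.70 ± 0.23). In F, Ndufa11 was lost without aN1aN2 replicate 1, and Ndufa13 without aN1aN2 replicate 2. Ndufa1 was lost without aJ1aJ2 replicate 3 or aN1aN2 replicate 1 or 3, Ndufb7 without aJ1aJ2 replicate 3 or 4 or aN1aN2 replicate 1 or 2, and Ndufs6 without any 1 sample other than RW replicate 3. DESeq2 did not call Ndufa1, Ndufb7 and Ndufs6 in F, Ndufs6 in EC1 or Ndufa4 and Ndufc2 in EC2. The total was 12 without aJ1aJ2 replicate 4, 10 without aN1aN2 replicate 1 and 11 without aN1aN2 replicate 2.

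Whether Th1 changed more than other labels was tested as an interaction of treatment and label; both labels come from the same pools, and the fit had a term for each pool. Against EC1, 16 of 38 members had a lower change in Th1 under receptor blockade and none a higher one (12.1% of all genes called, 6.43% lower in Th1). Against EC4 it was 13 of 33 (14.1% called, 9.1% lower), and against F 2 of 38 (13.6% called, 6.69% lower), all lower in Th1. Ndufc2 differed by −1.51 from EC1 and −2.21 from EC4, Ndufa7 by −0.83 and −1.62, and Ndufa1 by −1.25 and −1.64; these calls held in all 10 alternatives, as did that of Ndufb2 against EC1 (−0.94). Against F, the calls were Ndufa1 (−0.81) and Ndufb2 (−0.86). Ndufa1 against F was not called without RW replicate 1, 2 or 3, aJ1aJ2 replicate 3 or aN1aN2 replicate 1 or 2, nor Ndufb2 without RW replicate 2 or 3 or aN1aN2 replicate 1 or 2. Over the 3 labels the total of 31 was 20 without RW replicate 1, 19 without RW replicate 2, 14 without RW replicate 3, 12 without aN1aN2 replicate 2 and 18 without aN1aN2 replicate 3. Ndufa6 rose in Th1, EC1 and EC4, and its change in Th1 was not called as different from either of the last. Under ligand blockade 0 of 109 interactions were called with edgeR (0.395%, 0.269% and 0.0452% of all genes called against EC1, EC4 and F). Of the 109, 6 had an unadjusted p under 0.05, for which no share of all genes is given. Th3 and Th1 were not compared in this way. The summed share in Th3 was 1.33 ± 0.239% in RW and 1.25 ± 0.418% in aN1aN2, with overlapping samples. As a mean of single-cell shares the Th3 samples did not overlap, at 1.18% to 1.56% in RW and 0.887% to 0.983% in aN1aN2. In Th3, aN1aN2 2 stood at 1.71% summed and 0.887% per cell, with 2.58% of UMIs from Tg.

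Over the 9 Th1 sums, the 5 genes whose log2 level followed the members' mean most closely were Serp1 (Pearson r = 0.995), which protects proteins in the endoplasmic reticulum, Slc25a5 (0.994), the mitochondrial ADP/ATP carrier, Tma7 (0.993), Pomp (0.993), which assembles proteasomes, and Mrps24 (0.992), a mitochondrial ribosomal protein. Their changes under receptor blockade were −1.07, −0.74, −0.88, −0.89 and −0.92. The 9 points fall into groups, so these r values describe likeness only.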

How the data were processed

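Single thyroid cells of 9 samples were profiled with the 10x Genomics 3' v2 kit, per the labels' protocols. The authors deposited 1 table of raw UMI counts per gene and cell (52636 genes, 10186 cells) and 1 table with a sample and a cell label for each cell. Cell Ranger and the build GRCm38 are named in the submitters' processing notes, and no cell had under 500 UMIs. Symbols matched 52403 of 52636 identifiers, and 2619 annotation lines with shifted columns were realigned. How labels were made, and how doublets were treated, is not given in the sources used here; no doublet caller was run.

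Counts were summed per sample and label, for sums of at least 20 cells, and tested with edgeR 4.0.16 (R 4.3.3; filterByExpr, TMM, quasi-likelihood, Benjamini-Hochberg over all genes of the label; all 9 samples in 1 fit). A label was tested where both groups had 2 or more samples. SE is the log2 fold change over the square root of F. Interactions used 1 fit over both labels with a term for each pool. DESeq2 1.42.0, other scalings and filters, each sample left out, a block on sample numbers, thinning and equal cell numbers were alternatives. Intervals cover counting error only, and p-values measure the spread between pools. Named were the 5 largest changes each way, core subunits and members called in other labels; the members and lists were chosen with earlier results of these data known. On simulated data for aN1aN2 against RW in Th1, 10291 genes were fitted. Of these, 27 of 97 genes changed by log2 0.6 and 62 of 98 changed by log2 1 were recovered, with 9 false calls. Only these 97 and 98 genes were changed, drawn at random over all levels, while in the data 34.4% of genes were called. The recovered shares therefore do not give the power for the members. 1 member is counted in the totals, and its own values are not reported here.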

Additional observations from a re-analysis of the deposited data

Results flagged for a closer look

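The changes under receptor blockade (aN1aN2 against RW) differed between Th1 and another label for 31 pairs of member and label, by edgeR's interaction term with an adjusted p under 0.05, and each was lower in Th1. Values are the log2 change in Th1 minus that in the other label. Against EC1 these were Ndufc2 (−1.51), Ndufa1 (−1.25), Ndufb4c (−1.08), Ndufb2 (−0.94), Ndufa7 (−0.83), Ndufa11 (−0.77), Ndufv2 (−0.66), Ndufa3 (−0.63), Ndufs8 (−0.62), Ndufb4 (−0.61), Ndufs5 (−0.54), Ndufs6 (−0.54), Ndufa2 (−0.54), Ndufa12 (−0.49), Ndufa13 (−0.46) and Ndufa4 (−0.44). Against EC4 they were Ndufc2 (−2.21), Ndufb6 (−1.69), Ndufa1 (−1.64), Ndufa7 (−1.62), Ndufb4 (−1.55), Ndufs8 (−1.41), Ndufs6 (−1.25), Ndufa12 (−1.13), Ndufa11 (−1.12), Ndufa13 (−1.08), Ndufa5 (−1.03), Ndufs5 (−1.01) and Ndufa3 (−0.78). Against F they were Ndufb2 (−0.86) and Ndufa1 (−0.81).

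Several of these differences came with opposite directions in the 2 labels. Ndufc2 fell in Th1 and rose in EC1 and EC4, and Ndufa7, not called in Th1, rose in both. For Ndufa1 the change was negative in Th1, EC1 and F and largest in size in Th1. Beside the EC1 values, thyrocyte markers in EC1 summed to 713 to 988 CPM in control samples and reached 1330.0 to 1944 under receptor blockade. In EC4 the ranges were 1832 to 2750 and 1603 to 1938. Their part in the differences was not tested.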

How the results depend on the processing

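No called value reversed under any alternative run. In Th1, members called in aN1aN2 against RW ranged from 26 to 32 of 38. The sum of members' shares kept a log2 ratio of −0.68 to −0.58 for aN1aN2 against RW. Members called in Th1 in aJ1aJ2 against RW numbered 0, but 1 with no filter on low counts and 2 within the internal numbers of RW 1, RW 2, aJ1aJ2 3 and aJ1aJ2 4, and 0 to 2 with 1 sample left out. For aN1aN2 against aJ1aJ2 in Th1 the 25 calls became 18 to 26 with 1 sample left out. Calls in other labels for aJ1aJ2 against RW were 1 under DESeq2 and 1 without the low-count filter, and were 0 to 25 with 1 sample left out, the 25 without RW replicate 3 in S. For aN1aN2 against RW in other labels the 33 calls were 22 to 33, and for aN1aN2 against aJ1aJ2 the 19 were 10 to 23, with 1 sample left out. The 31 interactions were 12 to 35 with 1 sample left out. The cause of these changes was not tested. Over the named members and alternatives in Th1 for aN1aN2 against RW, 464 values kept direction and call, 25 lost the call, 8 gained it and 3 changed sign without a call.

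Deviations of same-numbered samples from their group means correlated at 0.0244 (RW 1 and aN1aN2 1), −0.0134 (RW 2 and aN1aN2 2) and −0.0474 (aJ1aJ2 3 and aN1aN2 3). With no values from differently numbered samples beside them, these do not settle whether sample numbers pair the samples. With the replicate block, calls in Th1 were 0 (aJ1aJ2 against RW), 27 (aN1aN2 against RW) and 14 (aN1aN2 against aJ1aJ2), and in other labels 0, 22 and 6.

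A median cell held 1046 UMIs in EC4 and 987 in Th3, and the part of depth in the counts of calls there was not tested.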
